A study of Mus musculus with 10 samples.

Results

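The genes examined were 10 secreted factors that are studied in tissue fibrosis: the 3 TGF-beta ligands Tgfb1, Tgfb2 and Tgfb3, and 7 matricellular or related factors, namely Ccn1, Ccn2, Postn, Tnc, Spp1, Thbs1 and Lgals3. They were chosen by name, with every array probe whose transcript maps to the symbol, among 22016 genes or transcripts tested. All 10 had a probe, 12 probes in all, and 9 entered the comparison. Both Tnc probes were too dim to test. The hearts were ventricles of male mice, 5 left without treatment (controls) and 5 given aldosterone over 7 days, each from its own animal. The sample titles carry the tag Ctrl in both groups, and control here means the untreated hearts alone. Aldosterone is a steroid hormone of the adrenal cortex and binds the mineralocorticoid receptor. The control group carries the same duration label and no agent, so a vehicle or sham step is not described for either group. The labels name no strain, age, dose or route. The comparison addressed which of these factors differ in cardiac RNA after aldosterone.

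TGF-beta ligands are secreted in a latent form, held in the matrix by latent TGF-beta binding proteins, and act once integrins, proteases or thrombospondin 1 release them. The active ligand brings together type II and type I receptor kinases that phosphorylate SMAD2 and SMAD3, and these enter the nucleus with SMAD4 and switch on matrix genes. Matricellular proteins sit in the matrix without forming its fibres, bind integrins and growth factors, are low in the resting adult heart, and are known to be made when the heart is loaded or injured.

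Heart RNA was labelled with Cy5 and hybridised against a common reference in Cy3, pooled RNA from several tissues. A level below is therefore log2 of heart over reference, after normalization within each array in the main comparison. There 0 is the trend of the array and not equal raw signal. For example, Ccn2 in aldosterone 2 had 3107 units in Cy5 and 1604 in Cy3, at a level of -0.46. A level cannot be compared between genes, because the reference holds a different amount of each. A difference is aldosterone minus control on the same log2 scale. The main comparison used the scanner files of 5 controls and aldosterone 1, 2, 3 and 5, and the deposited value table added aldosterone 4. On an array 64.3% to 70.9% of 39429 probes stood well above background in Cy5. The 9 tested members did so on all 9 arrays in both colours, and none was saturated. The hearts fell into 2 sets that cross the groups when clustered on 22007 genes other than these. Set A holds controls 1, 3 and 4 and aldosterone 3 and 5, and set B holds controls 2 and 5 and aldosterone 1, 2 and 4. The labels name no such sets, and their part in the results was tested only by fitting them as a block. In whole ventricle RNA, fewer cells of a type and less RNA per cell cannot be told apart.

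The stretch before the start site is shown for 4 genes whose levels are described below, to let the 3 kinds of factor be compared: a ligand gene with no match to any motif searched, a ligand gene with a TATA element, a CCN gene and a matricellular gene. The sequences are RefSeq's, of build GRCm38.p6, 250 bases that end just before the start site, read 5′ to 3′ on the gene's strand. Capitals mark matches to the motifs searched on both strands: CATTCC for TEAD factors, CAGAC for SMADs, TGANTCA for AP-1, TATAAA for the TATA element, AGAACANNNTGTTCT for steroid receptors, and the SRF-bound CArG box. The TATA element was added to the search after the sequences were seen.
Tgfb1: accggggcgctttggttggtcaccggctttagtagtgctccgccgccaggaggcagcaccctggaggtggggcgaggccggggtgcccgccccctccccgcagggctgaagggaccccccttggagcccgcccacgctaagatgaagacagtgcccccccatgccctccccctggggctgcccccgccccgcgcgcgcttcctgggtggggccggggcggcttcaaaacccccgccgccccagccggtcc
Tgfb2: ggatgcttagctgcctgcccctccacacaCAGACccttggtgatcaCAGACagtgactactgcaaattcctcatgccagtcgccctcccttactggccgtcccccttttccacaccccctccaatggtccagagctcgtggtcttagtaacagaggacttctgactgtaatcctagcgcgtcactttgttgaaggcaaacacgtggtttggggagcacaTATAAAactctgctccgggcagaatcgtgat
Ccn1: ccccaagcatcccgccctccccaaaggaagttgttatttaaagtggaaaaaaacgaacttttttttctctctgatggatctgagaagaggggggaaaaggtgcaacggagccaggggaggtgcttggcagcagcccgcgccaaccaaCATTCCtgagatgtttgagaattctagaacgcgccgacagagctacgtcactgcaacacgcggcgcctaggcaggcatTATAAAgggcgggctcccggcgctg
Postn, second start: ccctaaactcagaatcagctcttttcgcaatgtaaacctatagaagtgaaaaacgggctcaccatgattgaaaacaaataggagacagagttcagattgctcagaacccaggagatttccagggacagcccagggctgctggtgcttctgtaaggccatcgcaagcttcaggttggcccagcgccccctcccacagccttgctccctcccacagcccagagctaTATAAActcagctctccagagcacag

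Of the 10 genes, 7 matched the promoter table, with 10 windows, and those not matched were Tgfb3, Ccn2 and Thbs1. The Tgfb1 stretch (chr7:25686752-25687001, plus strand) was 75.2% G or C and held none of the motifs. The Tgfb2 stretch (chr1:186705990-186706239, minus strand) was 53.6% G or C and held 2 SMAD matches and a TATA element that begins 31 bases before the start. The Ccn1 stretch (chr3:145649986-145650235, minus strand) was the 1 window of the 10 with a TEAD match, which begins 103 bases before the start, and its TATA element begins 25 bases before it. The second Postn start (chr3:54360857-54361106, plus strand) had a TATA element 26 bases before the start and no other match. The first Postn start, not printed, had a SMAD match that begins 191 bases before it and no TATA element. Such letters also occur elsewhere, so they describe the letters alone: 12.6% of 32851 promoter windows held the TEAD letters, 42.2% the SMAD letters, 12.4% the TATA letters, 6.75% the AP-1 letters and 1.47% the CArG box. The steroid receptor letters occurred in 3 windows, and in none of these genes.

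With aldosterone, Thbs1 differed by the most of the 9 tested members, 0.69 on the log2 scale (SE 0.12, 1.61-fold), followed by Postn at 0.64 (SE 0.29, 1.56-fold). The ligand genes Tgfb1, Tgfb2 and Tgfb3 differed by 0.14 or less. No member passed limma's test at a Benjamini-Hochberg adjusted p under 0.05, and neither did any of the 22016 genes (percent called: 0), of which the smallest adjusted p was 0.10. At an unadjusted p under 0.05, 2 of the 9 members, Thbs1 and Postn, were higher with aldosterone, against 4.15% of all genes (6.19% in either direction). Thbs1 had such a p in 37 of 38 alternative settings, and Postn in 12. The estimate was above 0 for 8 of the 9, against 52.3% of all genes, and the median over members was 0.18, against 0.00497 over all genes. The sign of Spp1 turned in 13 of 38 alternative settings and that of Tgfb1, the 1 member below 0, in 9, so neither has a direction.

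**Figure D1:**
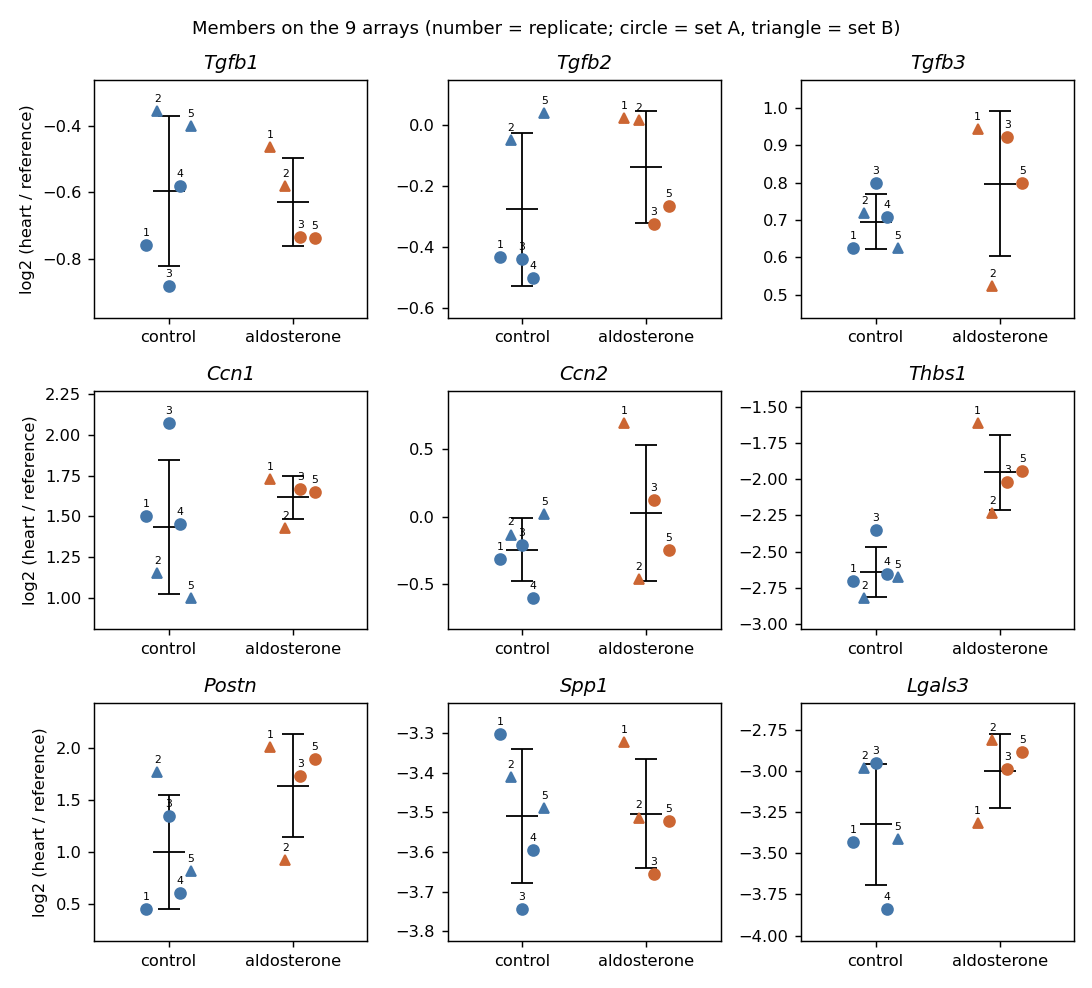
Log2 ratio of heart over reference (y axis) of each tested gene in every heart with a scanner file, controls beside aldosterone hearts, with the mean and SD of each group. Points are single hearts labelled by replicate number, circles for set A and triangles for set B. The 4 aldosterone hearts lie above the 5 controls for Thbs1, and the groups overlap in every other panel.

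Among the ligands, Tgfb1 encodes the isoform most studied in cardiac fibrosis. Its level was -0.76, -0.36, -0.88, -0.58 and -0.40 in controls 1 to 5, and -0.46, -0.58, -0.73 and -0.74 in aldosterone 1, 2, 3 and 5. Every aldosterone heart lay inside the range of the controls. The means were -0.60 ± 0.23 (SD, n = 5) and -0.63 ± 0.13 (SD, n = 4). The difference was -0.034 (SE 0.11), with a 95% interval from -0.28 to 0.22 (limma adjusted p = 1.00). The array holds 10 spots of the Tgfb1 probe, and their SD within an array was 0.0410 to 0.0985, below the SD between control hearts.

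Tgfb2, the isoform known for its part in heart development, had a level of -0.43, -0.050, -0.44, -0.50 and 0.041 in controls 1 to 5. In aldosterone 1, 2, 3 and 5 it was 0.024, 0.016, -0.32 and -0.26. The low hearts in both groups were those of set A, from -0.50 to -0.26, and the high ones those of set B, from -0.050 to 0.041. In the value table, which adds aldosterone 4 to set B, Tgfb2 lay from -0.17 to 0.099 in set A and from 0.24 to 0.47 in set B. A gap between the sets with no overlap was seen for 11.6% of all genes, and for 1 of the 9 members, so it is no result about the members. Aldosterone differed from control by 0.14 (SE 0.13; 95% interval -0.15 to 0.43; limma adjusted p = 0.997), and by 0.10 (SE 0.055) with the set as a block. A second Tgfb2 probe differed by 0.0058 (SE 0.086).

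Tgfb1 nearly split by set too, from -0.88 to -0.58 in set A and from -0.58 to -0.36 in set B, with aldosterone 2 just below the highest heart of set A. Tgfb3 did not, and its level was above the reference in every heart. It was 0.63, 0.72, 0.80, 0.71 and 0.62 in controls 1 to 5, and 0.94, 0.52, 0.92 and 0.80 in aldosterone 1, 2, 3 and 5. The highest and the lowest of these values were both aldosterone hearts. The controls lay closer together (0.70 ± 0.073, SD, n = 5) than the aldosterone hearts (0.80 ± 0.19, SD, n = 4). The Tgfb3 probe has 10 spots too, and their SD within an array was 0.0334 to 0.0908. On some arrays this spread of single spots exceeded the SD between control hearts. A heart's level is the mean of its 10 spots, so the 2 spreads are not like measures. The difference was 0.10 (SE 0.088; 95% interval -0.091 to 0.30; limma adjusted p = 0.990). It was 0.053 without aldosterone 1 and 0.19 without aldosterone 2. The upper limits of the 95% intervals of Tgfb1, Tgfb2 and Tgfb3 were 0.22, 0.43 and 0.30.

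The genes that hold, release and sense the ligands were described from lists. Of 17 tested genes for latent carriers and activators, 12 were higher, 2 of them at an unadjusted p under 0.05, and the median difference was 0.054. Over all genes 52.3% were higher and 4.15% were so at an unadjusted p under 0.05. Fbn1, the microfibril protein that anchors latent complexes, differed by 0.47 (SE 0.15), and Bmp1, a protease that processes procollagen and latent binding protein, by 0.21 (SE 0.082). On the lower side were Furin, which cleaves the ligand precursors, at -0.055 (SE 0.057), and Lrrc32, which displays latent TGF-beta on cell surfaces, at -0.041 (SE 0.066). Among 9 receptor and co-receptor genes 4 were higher, with a median of -0.013 and none at an unadjusted p under 0.05. The type II receptor gene Tgfbr2 differed by 0.15 (SE 0.081) and the type I receptor gene Acvr1 by 0.099 (SE 0.066). Tgfbr1, the TGF-beta type I receptor gene, differed by 0.019 (SE 0.062). The co-receptor gene Eng was at -0.072 (SE 0.078) and the receptor-associated gene Tgfbrap1 at -0.045 (SE 0.074). Of 16 SMAD genes and regulators 10 were higher, with a median of 0.028. Pmepa1, a TGF-beta-induced inhibitor of SMAD signalling, differed by 0.22 (SE 0.073) and the SMAD corepressor gene Tgif1 by 0.19 (SE 0.074). The ubiquitin ligase gene Smurf1 was at -0.069 (SE 0.079) and the common SMAD gene Smad4 at -0.029 (SE 0.056). None of these genes passed the adjusted test, with adjusted p from 0.607 up.

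Genes known as targets of TGF-beta had a higher median than these, 0.18. Of 25, 22 were higher, 10 of them at an unadjusted p under 0.05, against 4.15% of all genes, and none passed the adjusted test. The basement membrane collagen gene Col4a1 differed by 0.43 (SE 0.093, limma adjusted p = 0.246), and Loxl2, which crosslinks collagen, by 0.55 (SE 0.15, adjusted p = 0.419). Id1, a target better known for BMP signalling, was at -0.19 (SE 0.16), and the elastin gene Eln at -0.0051 (SE 0.079), a sign that turned with median centring. Of the 25, Col1a1 and Col3a1 also count as fibroblast markers below. Fbn1 and Pmepa1, both among the 10, were already counted in the lists above. Further genes, such as Ltbp2, Tagln and Acta2, stand in more than 1 list as well, so the lists are not separate evidence.

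**Figure D2:**
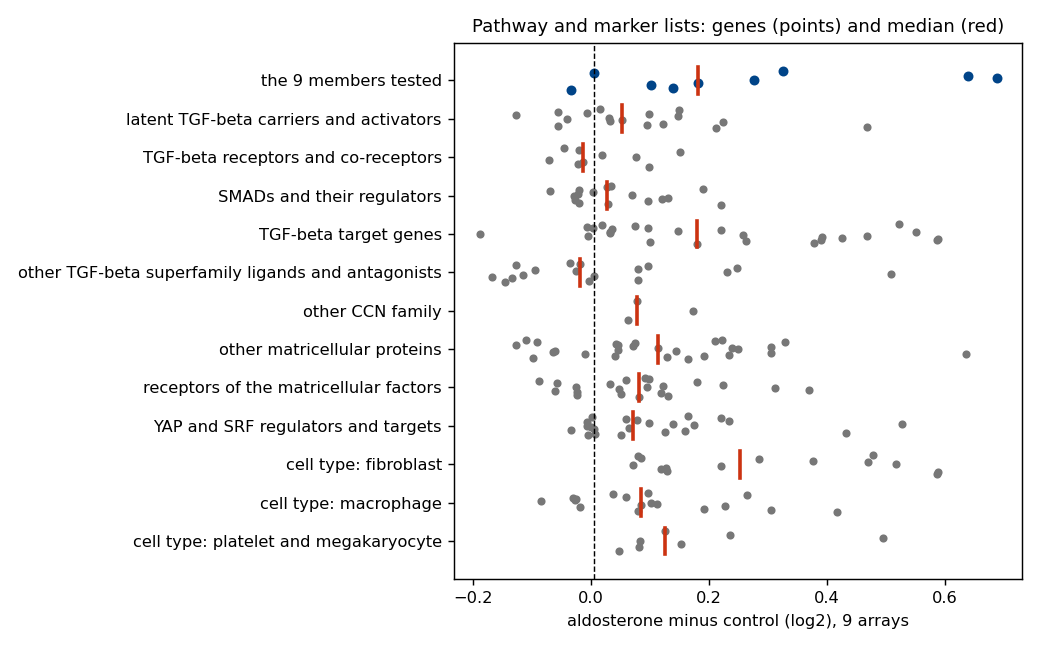
Difference in log2 ratio, aldosterone minus control (x axis), of each tested gene in the lists of the pathway (y axis), with the list's median. The median was 0.18 for the TGF-beta target genes and -0.013 for the receptors and co-receptors.

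Ccn1, also known as CYR61, is an early-response gene that YAP and SRF drive. Its level was 1.502, 1.15, 2.07, 1.45 and 1.00 in controls 1 to 5, and 1.73, 1.43, 1.67 and 1.65 in aldosterone 1, 2, 3 and 5. The aldosterone hearts lay close together inside the range of the controls, whose extremes were control 3 and control 5. The means were 1.44 ± 0.41 (SD, n = 5) and 1.62 ± 0.13 (SD, n = 4). The difference was 0.18 (SE 0.18; 95% interval -0.22 to 0.58; limma adjusted p = 0.999). It was 0.073 without control 5 and 0.34 without control 3, and in the value table it was 0.0097 without control 5.

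Ccn2, connective tissue growth factor, is a target that TGF-beta and YAP share. Its level was -0.31, -0.13, -0.21, -0.60 and 0.022 in controls 1 to 5, and 0.70, -0.46, 0.12 and -0.24 in aldosterone 1, 2, 3 and 5. Aldosterone 1 stood above all other hearts, and aldosterone 2 lay below 4 of the 5 controls. The means were -0.25 ± 0.23 (SD, n = 5) and 0.029 ± 0.51 (SD, n = 4), a difference of 0.28 (SE 0.21; 95% interval -0.18 to 0.73; limma adjusted p = 0.978). It was 0.054 without aldosterone 1 and 0.44 without aldosterone 2, so single hearts set its size.

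A list of YAP and SRF regulators and their targets held 22 tested genes. Of these, 18 were higher, against 52.3% of all genes, with a median of 0.072. Tpm1, counted among the 18, was saturated in Cy5 on all 5 control and 4 aldosterone arrays. Ankrd1, also among the 18, was saturated on 1 control and 2 aldosterone arrays. The coactivator gene Wwtr1, which encodes TAZ, differed by 0.22 (SE 0.072) and its partner gene Tead1 by 0.23 (SE 0.082). The calponin gene Cnn1 was at -0.034 (SE 0.32) and the SRF coactivator gene Mrtfa at -0.0069 (SE 0.066), and the signs of both turned under other settings. Of the other CCN genes, Ccn4 differed by 0.17 (SE 0.17) and Ccn3 by 0.063 (SE 0.086), and all 3 tested were higher. Ccn3 was at 0.45 in the value table.

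Thbs1 encodes thrombospondin 1, which inhibits vessel growth and can release TGF-beta from its latent form. Its level was -2.70, -2.82, -2.35, -2.66 and -2.67 in controls 1 to 5, and -1.61, -2.23, -2.02 and -1.94 in aldosterone 1, 2, 3 and 5. All 4 aldosterone hearts lay above all 5 controls, as for 1.46% of all genes. The means were -2.64 ± 0.17 (SD, n = 5) and -1.95 ± 0.26 (SD, n = 4). The difference was 0.69 (SE 0.12; 95% interval 0.41 to 0.96). Its unadjusted limma p, 0.000191, was the 31st smallest of 22016, and its adjusted p of 0.132 missed the threshold.

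The Thbs1 spots show the same pattern in 1 colour. The Cy5 signal of the hearts was 111 to 179.5 units in controls and 191.5 to 247.5 units with aldosterone. The Cy3 signal of the reference stayed between 414.5 and 452.5 units on all 9 arrays. The median probe of an array had 118.5 to 146.25 units, over a local background of 57 to 59. The aldosterone spots of Thbs1 lay above that range and most control spots within or below it. The size of the difference varied with the treatment of the background. With the local backgrounds as deposited it was 0.44 (unadjusted p = 0.142), which was the lowest of 38 alternatives. It had an unadjusted p under 0.05 in the other 37 and passed the adjusted threshold in none, with adjusted p from 0.0791 to 1.00.

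In the value table of all 10 hearts, Thbs1 was at -3.41, -3.41, -2.72, -3.13 and -3.35 in controls 1 to 5, and at -1.63, -2.45, -2.12, -2.95 and -1.98 in aldosterone 1 to 5. Aldosterone 4, the heart known from this table alone, lay below control 3, so there the groups overlapped. The difference was 0.98 (SE 0.24, 1.97-fold, limma adjusted p = 0.226). In that fit 37 of 22016 genes passed (percent called: 0.168), 33 of them higher with aldosterone (percent called: 0.15), and no member was among them. Again 8 of the 9 members were above 0, against 49.9% of all genes, with a median of 0.17. The ligand genes Tgfb1, Tgfb2 and Tgfb3 differed by -0.0086, 0.17 and 0.052 there, Ccn1 and Ccn2 by 0.12 and 0.24, Spp1 by 0.0040 and Lgals3 by 0.38.

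**Figure D3:**
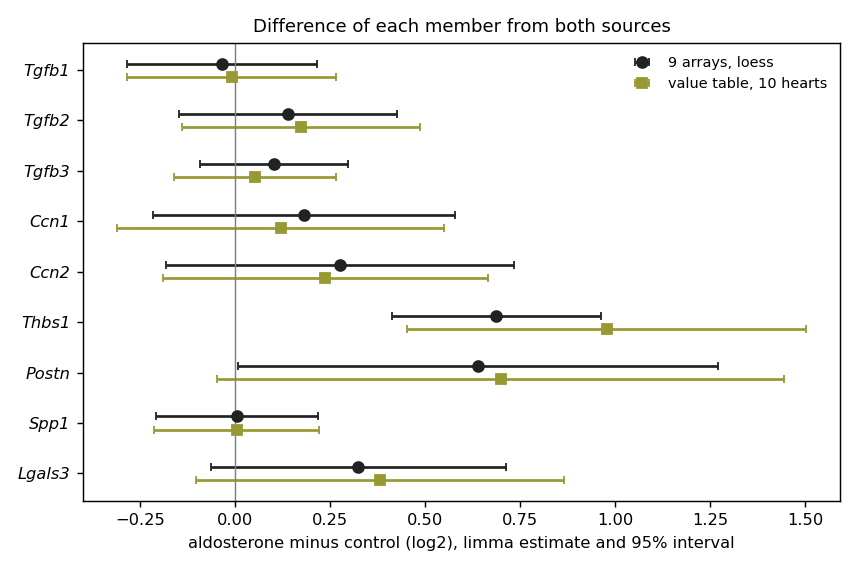
Difference in log2 ratio, aldosterone minus control (x axis), of the 9 tested genes (y axis) with 95% intervals, from the 9 arrays and from the value table of 10 hearts. Thbs1 was at 0.69 on the 9 arrays and 0.98 in the table, and the intervals of most other genes include 0.

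Thrombospondin 1 is also stored in platelets, and platelet markers had differences of the same sign. All 7 tested platelet and megakaryocyte markers were higher with aldosterone, against 52.3% of all genes, with a median difference of 0.13. Of these, 1 had an unadjusted p under 0.05, against 4.15% of all genes. The mean level of the 7 was -2.55 to -2.18 in controls and -2.21 to -2.03 with aldosterone, so the groups overlapped. The platelet chemokine gene Pf4 differed by 0.49 (SE 0.22) and the platelet receptor subunit gene Gp9 by 0.15 (SE 0.096), a sign that turned with the local backgrounds as deposited, while Gp1ba was above background on no array. Of 7 red blood cell markers 6 were higher, 4 of them at an unadjusted p under 0.05. The mean level of these 7 was -2.91 to -1.98 in controls and -2.01 to -1.53 with aldosterone, which overlapped as well. Among them the heme synthesis gene Alas2 differed by 0.83 (SE 0.21) and the beta globin gene Hbb-b2 by 1.06 (SE 0.28). Hba-a1, Hba-a2 and Hbb-bt differed by 0.034, -0.078 and 0.064, but their Cy5 spots were saturated on all 4 aldosterone arrays and on 4, 5 and 3 controls, so these values carry no fold. Hbb-b2 was saturated on 1 aldosterone array. The part of blood cells in the Thbs1 difference was not tested.

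Postn encodes periostin, a matrix protein that activated cardiac fibroblasts secrete. Its level was 0.45, 1.77, 1.34, 0.61 and 0.82 in controls 1 to 5, and 2.01, 0.92, 1.73 and 1.89 in aldosterone 1, 2, 3 and 5. Controls 2 and 3 reached into the range of the aldosterone hearts, and aldosterone 2 lay among the controls. The means were 1.00 ± 0.55 (SD, n = 5) and 1.64 ± 0.49 (SD, n = 4), the widest spread among control hearts of any tested member. The difference was 0.64 (SE 0.29; 95% interval 0.0083 to 1.27; limma adjusted p = 0.805), and it ranged from 0.50 to 0.88 as single arrays were left out. In the value table Postn was at 1.22, 2.63, 2.24, 1.47 and 1.51 in controls and at 3.19, 1.72, 2.71, 2.17 and 2.79 in aldosterone 1 to 5. There it differed by 0.70 (SE 0.33; adjusted p = 0.647).

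Fibroblast markers had differences of the same sign as Postn. All 14 were higher with aldosterone, against 52.3% of all genes, with a median of 0.25. Of these, 8 had an unadjusted p under 0.05, against 4.15% of all genes. The mean level was 0.37 to 0.81 in controls and 0.67 to 1.01 with aldosterone, so the groups overlapped. Vim, whose product forms the intermediate filaments of fibroblasts, differed by 0.48 (SE 0.11), and the procollagen processing gene Pcolce by 0.38 (SE 0.094). Tcf21, Thy1 and Gsn differed by less, 0.086 (SE 0.082), 0.080 (SE 0.078) and 0.072 (SE 0.098). Of 9 myofibroblast markers 6 were higher, against 52.3% of all genes. The mean level of the 9 markers was -0.24 to 0.33 in controls and 0.11 to 0.37 with aldosterone. Meox1, a transcription factor of activated fibroblasts, differed by 0.62 (SE 0.16) and the protease gene Fap by 0.22 (SE 0.095), and Cthrc1 was too dim to test. The part of fibroblast number in the Postn difference was not tested. Cardiomyocyte markers, the check of the labelled tissue, had mean levels of 1.42 to 1.66 in controls and 1.503 to 1.70 with aldosterone, with 9 of 13 markers saturated on every array.

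Spp1, osteopontin, is made by macrophages and activated fibroblasts. Its level was far below the reference in every heart, with -3.30, -3.41, -3.74, -3.59 and -3.49 in controls 1 to 5 and -3.32, -3.51, -3.66 and -3.52 in aldosterone 1, 2, 3 and 5. The means were -3.51 ± 0.17 (SD, n = 5) and -3.50 ± 0.14 (SD, n = 4). The difference was 0.0053 (SE 0.096; 95% interval -0.21 to 0.22; limma adjusted p = 1.00).

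Tnc, tenascin C, is a matrix glycoprotein that reappears at sites of injury. One of its 2 probes was well above background on no array, with Cy5 signals of 58 to 72 units. The other was so on 1 array, aldosterone 2, with signals of 61 to 85 units. The reference was as dim, from 67 to 83.5 units over both probes, so no level, fold or test can be given, and Tnc RNA was at or near the limit of detection of these arrays.

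Lgals3 encodes galectin-3, a lectin that macrophages secrete and that binds sugars on cell surfaces and matrix. Its level was -3.43, -2.98, -2.95, -3.84 and -3.41 in controls 1 to 5, and -3.32, -2.81, -2.99 and -2.88 in aldosterone 1, 2, 3 and 5. Control 4 was the lowest heart, and 3 of the 4 aldosterone hearts were near controls 2 and 3, the highest controls. The means were -3.32 ± 0.37 (SD, n = 5) and -3.00 ± 0.22 (SD, n = 4). The difference was 0.32 (SE 0.18, 1.25-fold; 95% interval -0.063 to 0.71; limma adjusted p = 0.886), and 0.20 without control 4.

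Macrophage markers, of which 12 of 17 were higher, against 52.3% of all genes, overlapped between the groups as well. Their mean level was -1.42 to -0.70 in controls and -1.12 to -0.85 with aldosterone. The macrophage surface gene Adgre1 differed by 0.42 (SE 0.19) and the mannose receptor gene Mrc1 by 0.26 (SE 0.15), and no macrophage marker had an unadjusted p under 0.05. The part of macrophages in the Lgals3 values was not tested.

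Of 27 other matricellular genes 20 were higher, against 52.3% of all genes, and 7 of them had an unadjusted p under 0.05, against 4.15%. Their median was 0.11, and none passed. Sparc, counted among the 20, was saturated in Cy5 on all 5 control and 4 aldosterone arrays, so its value carries no fold. Thbs3, a thrombospondin of another subgroup, differed by 0.33 (SE 0.094) and the fibulin gene Fbln2 by 0.64 (SE 0.22). On the lower side were Spock1, a testican proteoglycan, at -0.13 (SE 0.059), and the vitronectin gene Vtn, at -0.11 (SE 0.086). Spock1 was at -0.66 (SE 0.35) in the value table. Of 21 genes for receptors of these factors 15 were higher, with a median of 0.082. The integrin genes Itga6 and Itgb3 differed by 0.37 (SE 0.097) and 0.22 (SE 0.11), while Lrp6 was at -0.088 (SE 0.094) and Itga5 at -0.061 (SE 0.085).

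Each of the 4 slides held both groups, so the differences were also taken within slides. Thbs1 was higher with aldosterone on every slide, by 1.15, 0.12, 0.63 and 0.73 on slides 1 to 4, and was the 1 member of which this held. Postn was higher on 3 slides, by 0.90, 1.12 and 1.07 on slides 1, 3 and 4, and lower on slide 2, at -0.42. On slide 2, which held control 3 and aldosterone 2, Tgfb3, Ccn1, Ccn2 and Postn were all lower with aldosterone. Slides 2 and 4 set hearts of different sets against each other, and slide 1 did so in part. Slide 3, with both arrays from set A, gave 0.63 for Thbs1, 1.12 for Postn, 0.85 for Lgals3 and 0.73 for Ccn2. With slide as a block, Thbs1 differed by 0.69 (SE 0.15, adjusted p = 0.597) and Postn by 0.68 (SE 0.33, adjusted p = 0.951). With the set as a block Thbs1 differed by 0.69 (adjusted p = 0.107) and Postn by 0.63 (adjusted p = 0.607). Controls were at position 1 or 4 of a slide and aldosterone hearts at position 2, and an effect of position cannot be told apart from that of aldosterone.

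**Figure D4:**
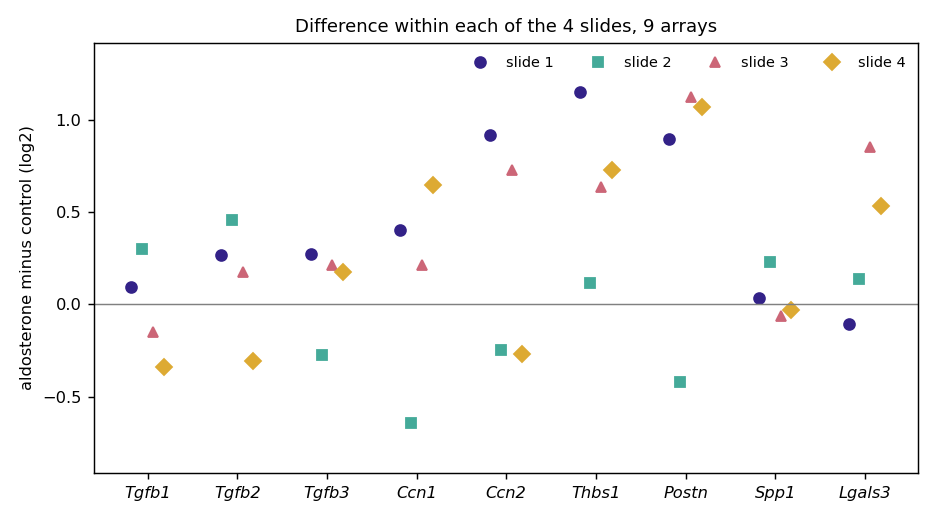
Difference in log2 ratio, aldosterone minus control (y axis), of each tested gene within each of the 4 slides. Thbs1 lies above 0 on all 4 slides, from 0.12 to 1.15, and Postn on 3 of them.

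The genes whose levels followed each member most closely over the 9 arrays were taken from 15202 genes with a value on every array. The 9 arrays share the reference and span the 2 treatment groups and the 2 sets of hearts, so these correlations are a description. Postn ran closest with the collagen genes Col1a1 (Pearson r = 0.982, Spearman rho = 0.933) and Col1a2 (r = 0.969, rho = 0.95). Thbs1 ran closest with Tedc1 (r = 0.966, rho = 0.983) and the spindle gene Spag5 (r = 0.953, rho = 0.833), and Ccn1 with the muscle filamin gene Flnc (r = 0.980, rho = 0.967) and Mtpn (r = 0.964, rho = 0.983). Tgfb1 was nearest to Ppil1 and 9930111J21Rik1 (r = 0.981 and 0.976), Tgfb2 to Cds1 and Paqr4 (0.978 and 0.974), and Tgfb3 to S1pr2 and Angptl7 (both 0.936). Ccn2 was nearest to Otud5 and Lrrc2 (0.921 and 0.911), Spp1 to Myo1h and Sprr1a (0.970 and 0.965), and Lgals3 to Aqp8 and Nrap (0.964 and 0.947). No member was among the pair closest to another.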

How the data were processed

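Deposited scanner files of 9 arrays give intensity per spot and a log10 ratio of Cy5 over Cy3, from Agilent Feature Extraction 10.7.3.1 per the submitters' processing notes. A deposited table of values, on the log2 scale and with 1 ratio per probe, covers all 10 hearts. It matched the scanner's ratio on 9 arrays (r 0.996 to 1.00), with no centring seen (column medians 0.056, 0.064, 0.12, 0.017 and 0.016 in controls and 0.044, 0.08, 0.11, -0.0066 and 0.037 in aldosterone hearts, by replicate number). Hearts were in Cy5 on every array, per the labels, and the sources used here name no genome build for the array.

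Median signals were background-corrected with normexp (offset 50), after local backgrounds over 20 units from an array's median, up to 11739.5 units on control 1, were set to that median. Ratios were loess-normalized within arrays (R 4.3.3, limma 3.58.1). Control spots had weight 0, 1667 outlier spots were left out, and spots of a probe were averaged. Accessions named 26581 of 39429 probes through RefSeq. Genes were tested on their brightest probe if it was well above background in Cy5 on at least 4 arrays. Limma's moderated test was two-sided, p-values were adjusted by Benjamini-Hochberg across the 22016 genes, and the threshold was 0.05. The lists count genes, and no list was tested. In each pathway list the 2 genes of smallest p in each direction are named, in each cell type list the 2 of smallest p, and for each member the 2 most correlated genes. One gene chosen by this rule is not reported here. Members, lists, rules and the main setting were chosen with earlier results of these data known. The labels name separate mice but no pairing, and the number of arrays limits precision. The fit was tested on simulated data. Alternatives covered background, normalization, filters, probes, the value table, blocks and single arrays left out.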

Additional observations from a re-analysis of the deposited data

How the results depend on the processing

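No member passed at an adjusted p under 0.05 in any of the 38 alternatives, and the median over members stayed above 0, from 0.0855 without aldosterone 1 to 0.29 without control 3. Thbs1 ranged from 0.44 to 1.16 and Postn from 0.50 to 0.90. Counts of genes called over all genes, 0 in the main setting, were 11 with the scanner's log ratio. They were 37 and 13 in the value table of 10 and of 9 hearts, and 3 with array weights. With the set of hearts as a block 8 were called, and 12 in the value table with that block (chosen after seeing the data). As single hearts were left out, the counts were 0 to 11 on the 9 arrays and 2 to 50 in the value table. The deviations of same-numbered hearts had correlations of 0.0591, 0.336, 0.347 and -0.341 for replicates 1, 2, 3 and 5. Replicates 2 and 3 each lay within 1 set of hearts, and replicates 1 and 5 crossed the sets. These values therefore cannot show whether the numbers pair hearts. With the replicate number as a block, which in effect leaves out control 4, 2 genes and no member were called, Thbs1 differed by 0.68 and Spp1 by -0.0161.

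Signs turned for values near 0. Spp1 was -0.17 with local backgrounds as deposited, -0.00635 with median centring, -0.0322 with scale normalization, -0.0284 with array weights, -0.00771 with the set block and -0.0187 with it in the value table. Ccn3 was -0.00395, Eln 0.00298, Gp9 -0.0661 and Itga5 0.0374 with deposited backgrounds. Eln was 0.000967 with median centring and 0.0269 with array weights. Cnn1 was 0.00827 with the set block, 0.0135 with it in the value table and 0.14 with array weights. Mrtfa was 0.0209 with the scanner's log ratio and in the table of 9 hearts, 0.00179 in that of 10, 0.0132 with the mean of probes, 0.011 with the slide block and 0.0122 with the set block in the table. Smad4 was 0.0442 with the mean of probes and Spock1 0.0345 with Cy5 alone. The cause was not tested.

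With single hearts left out, on the 9 arrays or in the value table, Tgfb1 ran from -0.11 to 0.0574 and Spp1 from -0.0548 to 0.0672. Ccn3 ran from -0.00706 to 0.67, Cnn1 from -0.25 to 0.24, Eln from -0.25 to 0.0394 and Id1 from -0.32 to 0.024. Lrrc32 ran from -0.0726 to 0.00226, Mrtfa from -0.0589 to 0.0317 and Tgfbrap1 from -0.26 to 0.00299. Each range was taken over both sources, so it can also hold the difference between them. On the 9 arrays alone Tgfb1 ran from -0.11 to 0.0257 and Spp1 from -0.0548 to 0.0567. Within single slides the sign turned for Tgfb1 (0.0932 on slide 1, 0.30 on slide 2), Lgals3 (-0.11 on slide 1), Tgfb3 (-0.28), Ccn1 (-0.64), Ccn2 (-0.25) and Postn (-0.42) on slide 2, Spp1 on slides 3 (-0.0615) and 4 (-0.0314), and Tgfb2 (-0.31) and Ccn2 (-0.27) on slide 4.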

Other observations

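Other ligands and antagonists of the TGF-beta superfamily did not share a direction. Of 17 tested, 7 were higher with aldosterone, against 52.3% of all genes, and the median difference was -0.0183. Fstl1, a secreted glycoprotein related to follistatin, differed by 0.51 (SE 0.12, limma adjusted p = 0.376), and Inhba, which encodes the subunit of activin A, by 0.25 (SE 0.076, limma adjusted p = 0.552). All 4 aldosterone hearts lay above all 5 controls for Inhba, as for 1.46% of all genes. Among genes named above, Col4a1, Vim and Meox1 also did so, with others. Bmp10, a ligand made by atrial myocytes, was at -0.15 (SE 0.09) and Bmp6, a regulator of iron balance, at -0.13 (SE 0.084). In the value table Inhba was at 0.45 and Bmp10 at -0.45. None passed.

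Among cell types not described above, endothelial markers were higher for 5 of 11, with a median difference of -0.019. Vwf differed by 0.32 (SE 0.13) and Esam by 0.18 (SE 0.08), while the lowest, Emcn, was at -0.091 (SE 0.063). Smooth muscle and pericyte markers were higher for 6 of 12 (Smtn -0.15 and Cspg4 0.13). Lymphocyte markers were higher for 1 of 11 (Nkg7 -0.0797) and mesothelial markers for 2 of 5 (Wt1 0.19 and Tbx18 -0.15). Of 10 adipocyte markers 1 was higher, with Lipe, a triglyceride lipase gene, at -0.27 (SE 0.062) and the adipokine gene Cfd at -0.99 (SE 0.29). Of 8 atrial myocyte markers 5 were higher, with Nppa at 0.84 (SE 0.31) and Dkk3 at 0.30 (SE 0.14) (Nppa was saturated on 1 control and 3 aldosterone arrays). The median of the 8 was 0.027, and Bmp10, Nr2f2 and Stard10 were lower, at -0.15, -0.14 and -0.12. Over all genes 52.3% were higher. No marker passed the adjusted test over all genes.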
